A study of Mus musculus with 6 samples.

Results

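The 5′ end of the HoxA gene cluster was followed in RNA-seq counts of E10.5 mouse tailbuds through 5 genes, which are the protein-coding genes Hoxa11, Hoxa13 and Evx1 and the noncoding transcripts Hoxa11os and Hottip. They were chosen by their place in the genome, as the rows of the count table that bear these names, and make up 5 of its 54134 rows. The study asked what happens in the tailbud when the nuclear receptor Nr6a1, which wildtype embryos clear from this tissue, is kept on. Each of 6 embryos of strain C57BL/6 gave 1 library, 4 of them wildtype and 2 transient transgenic for Cdx2P:Nr6a1. The transgene holds the coding sequence of the long Nr6a1 isoform behind a Cdx2 promoter, which is active in the caudal end of the embryo, and was brought in by pronuclear injection. The wildtype embryos were the injected embryos that lacked it. No stable line was made, so each transgenic embryo is an integration of its own. The dissected tissue was everything caudal to the last somite, which holds several cell types, so that fewer cells of a type and less RNA per cell cannot be told apart in any value below.

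Hox genes are switched on in the order in which they lie along the chromosome, and those at the 5′ end of a cluster come last and act in the most posterior tissue. Hoxa11 and Hoxa13 encode homeodomain transcription factors known from the limb, the kidney and the hindgut, and Hox13 proteins are known to oppose further elongation of the body axis. Hottip is a noncoding RNA transcribed from the 5′ tip of the cluster and is known to bring the WDR5-MLL histone methyltransferase to the 5′ HoxA genes. Hoxa11os is transcribed across Hoxa11 from the opposite strand. Evx1, an even-skipped homeobox gene beside the cluster, is known from the primitive streak, the tailbud and the V0 interneurons of the spinal cord.

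The libraries held 44073460 to 67183802 counts, and the transgenic replicates 1 and 2 were the shallowest and the deepest. Values are given as CPM, in which the counts of a gene are scaled by the total of its library. Nr6a1 itself, which sums the counts of the endogenous gene and the transgene, lay at 3.91, 5.18, 5.53 and 6.89 CPM in wildtype replicates 1 to 4 and at 23.4 and 33.8 CPM in Cdx2P:Nr6a1 replicates 1 and 2. This goes with the labels, and replicate 2 held more of it than replicate 1. All 10 tailbud markers examined passed the filter on low counts, and their summed level was 2577 to 2869 CPM in wildtype and 2981 and 2623 CPM in Cdx2P:Nr6a1. Of the 12733 genes tested by edgeR's quasi-likelihood test, 1.59% had an adjusted p under 0.05, 0.785% higher and 0.809% lower in Cdx2P:Nr6a1.

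All 5 genes passed the filter, and 3 of them passed the test: Hoxa11 rose, whereas Hoxa13 and Hottip fell. The start sites of Hoxa11 and Hoxa13 lie 15070 bases apart, and the direction changed between them. The start regions of these 3 genes are shown because the genes moved in opposite directions within a short stretch of chromosome 6. Each holds 250 bases before and 50 bases after the start site, from RefSeq on build GRCm38.p6, read 5′ to 3′ on the gene's own strand. Capitals mark every CpG, the dinucleotide that is dense in CpG islands, and the letters CAATAAA, a motif of the kind bound by posterior Hox and Cdx proteins.
Hoxa11 (chr6:52245761-52246060, minus strand): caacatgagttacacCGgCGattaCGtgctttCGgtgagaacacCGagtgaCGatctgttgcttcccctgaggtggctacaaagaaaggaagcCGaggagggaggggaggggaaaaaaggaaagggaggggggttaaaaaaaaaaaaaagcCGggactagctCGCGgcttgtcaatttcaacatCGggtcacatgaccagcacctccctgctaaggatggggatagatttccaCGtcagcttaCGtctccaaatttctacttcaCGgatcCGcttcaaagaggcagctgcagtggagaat
Hoxa13 (chr6:52260831-52261130, minus strand): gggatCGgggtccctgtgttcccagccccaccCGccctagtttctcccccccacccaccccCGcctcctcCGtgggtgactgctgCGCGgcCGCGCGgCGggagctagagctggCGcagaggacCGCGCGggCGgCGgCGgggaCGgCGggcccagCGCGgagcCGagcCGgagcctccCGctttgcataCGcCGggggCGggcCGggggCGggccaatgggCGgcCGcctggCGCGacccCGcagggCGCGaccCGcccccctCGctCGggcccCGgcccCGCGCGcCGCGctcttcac
Hottip (chr6:52262525-52262824, plus strand): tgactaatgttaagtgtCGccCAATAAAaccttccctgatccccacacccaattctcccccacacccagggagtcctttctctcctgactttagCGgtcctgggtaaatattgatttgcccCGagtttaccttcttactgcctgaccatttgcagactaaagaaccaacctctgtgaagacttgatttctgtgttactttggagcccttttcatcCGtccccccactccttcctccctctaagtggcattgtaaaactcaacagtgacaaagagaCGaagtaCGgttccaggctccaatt

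Hoxa13 and Hottip are divergent neighbours whose start sites lie 1895 bases apart, and their start regions differ in base composition. That of Hoxa13 is 81.0% G and C with 45 CpG, a higher G and C share than 99.3% of the 32851 start regions in the same RefSeq table. That of Hottip is 47.7% G and C with 6 CpG, and that of Hoxa11 is 51.0% with 15 CpG. The RefSeq start of Hoxa11os lies 850 bases inside the deposited row. The corresponding values are 70.3% and 41 CpG for Hoxa11os and 48.7% and 12 CpG for Evx1, beside a median of 52.7% and 7 CpG over all start regions. CAATAAA was found once in the Hottip region, beginning 229 bases before the start site, and once in that of Evx1, beginning 230 bases before it, on the gene's own strand in both. It occurs on either strand in 4.60% of all start regions. AGGTCA, the core element of nuclear receptors, is held by 16.3% of start regions, and TCAAGGTCA, the longer element known for Nr6a1, which contains AGGTCA, by 0.423%, again on either strand. Neither was found in the 5 regions, which says only that these letters are not in these windows.

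Hoxa11 occupies chr6:52242106-52245810 on the minus strand in 2 exons. It lay at 30.9, 33.5, 35.4 and 33.4 CPM in wildtype replicates 1 to 4 and at 67.3 and 78.1 CPM in Cdx2P:Nr6a1 replicates 1 and 2. The groups did not overlap, and the lower transgenic library was well above the highest wildtype library. The mean rose from 33.3 ± 1.84 CPM (SD, n = 4) to 72.7 ± 7.63 CPM (SD, n = 2), which is 2.18-fold. The log2 fold change was 1.12 (SE 0.07, adjusted p = 0.000477, edgeR quasi-likelihood test). It was the 25th largest increase among the 12733 genes tested and the second by p-value. Hoxa11 was called under all 13 alternatives without a replicate block, with log2 fold changes from 1.0 to 1.23.

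**Figure D1:**
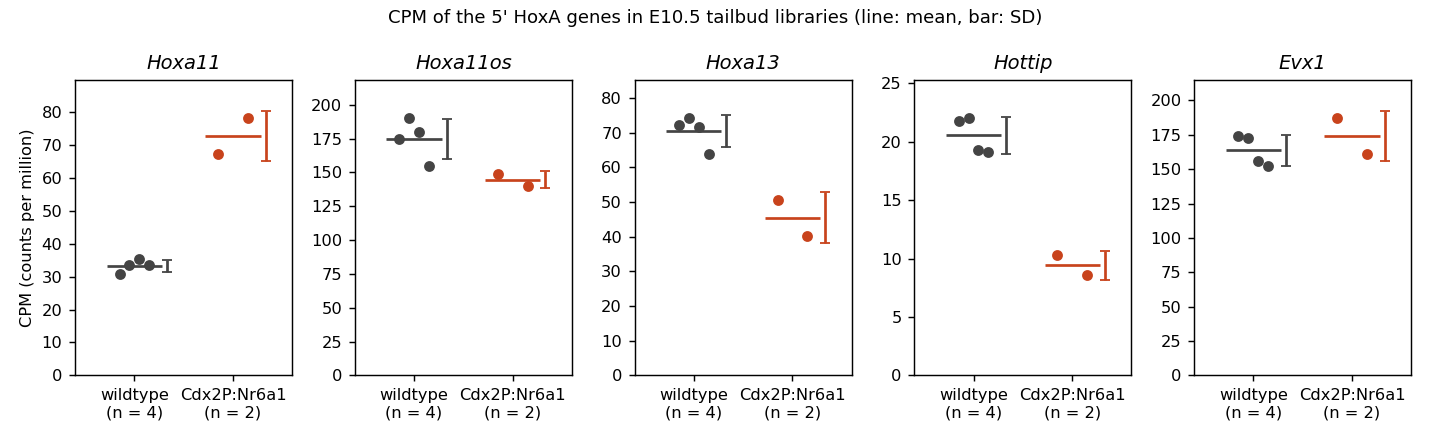
CPM (scaled read counts, vertical axes from 0) of each of the 5 genes in the 4 wildtype (grey) and 2 Cdx2P:Nr6a1 (orange) libraries. Points are libraries, horizontal lines are means and the bars beside them are SD. Hoxa11 is above the wildtype range in both transgenic libraries, Hoxa11os, Hoxa13 and Hottip are below it in both, and Evx1 overlaps it.

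Hoxa11os, the antisense transcript at chr6:52244393-52249799 on the plus strand, did not move with Hoxa11. It lay at 175, 190, 180 and 155 CPM in the wildtype libraries and at 149 and 140 CPM in the transgenic ones. Both transgenic values were below all wildtype values, although the nearest pair, 155 and 149 CPM, was close. Both transgenic libraries lay outside the wildtype range, on either side, for 18.6% of all genes tested and for 4 of the 5 genes described here. The mean was 175 ± 14.9 CPM (SD, n = 4) against 144 ± 5.91 CPM (SD, n = 2). The log2 fold change was -0.28 (SE 0.08, adjusted p = 0.133, edgeR quasi-likelihood test). It did not pass the threshold there but did under 4 of 13 alternatives, among them DESeq2 (adjusted p = 0.0102) and the edgeR fit without wildtype replicate 4 (adjusted p = 0.0349), within a range from 0.000148 to 0.448.

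How the reads of this antisense pair were counted bears on both values. The table behaves as one counted without strand. It has 446 genes that opposite-strand exons cover completely, and 0 of these exceeded 10 counts in total, while 37.5% of the 42762 genes with uncovered exons did. The first exon of Hoxa11, 800 bases long, lies wholly under exons of Hoxa11os, so that the Hoxa11 counts came from its last exon alone, 1487 bases at chr6:52242106-52243592. Hoxa11os kept 1609 of its 3073 exon bases free of other rows, and 618 of these lie in the intron of Hoxa11, where unspliced Hoxa11 RNA would be counted as Hoxa11os. The part of such reads in the Hoxa11os values was not tested.

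Within a library the counts of 2 genes can be compared without reference to its depth. For each read of Hoxa11os, Hoxa11 had 0.176, 0.176, 0.197 and 0.216 reads in the wildtype libraries and 0.453 and 0.557 reads in the transgenic libraries. The ratio was thus higher in both transgenic libraries than in any wildtype library. The mean log2 ratio moved by 1.40, from -2.39 to -0.99, a 2.64-fold difference. The exact two-sided permutation test gave p = 0.0667, the smallest value that 15 arrangements of 4 against 2 libraries allow, and 0.0858 after adjustment over the 9 ratios examined. Leaving out a transgenic library gave 1.25 (replicate 2 removed) or 1.55 (replicate 1 removed).

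Hoxa11 was also set beside Hoxa10, the next gene of the cluster, 1251 bases away on the same strand. Hoxa10 lay at 172, 190, 193 and 176 CPM in wildtype and at 201 and 220 CPM in Cdx2P:Nr6a1, with a log2 fold change of 0.20 (SE 0.06, adjusted p = 0.196, edgeR). The log2 ratio of Hoxa11 to Hoxa10 was 0.92 higher in the transgenic libraries, a 1.89-fold difference, with the same smallest exact permutation p = 0.0667. This ratio and those to genes outside the 5 were added after the data had been seen.

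Hoxa13, at chr6:52257694-52260880 on the minus strand, shares no exon base with another row. It lay at 72.3, 74.1, 71.7 and 63.8 CPM in wildtype and at 50.6 and 40.2 CPM in Cdx2P:Nr6a1. Every transgenic value was below every wildtype value, and replicate 2, the library with more Nr6a1, was the lower one. The mean fell from 70.5 ± 4.56 CPM (SD, n = 4) to 45.4 ± 7.33 CPM (SD, n = 2), a log2 fold change of -0.65 (SE 0.09, adjusted p = 0.0131, edgeR quasi-likelihood test). The call rested on replicate 2: without that library the log2 fold change was -0.49 and the adjusted p was 0.0837 in edgeR, with the lone transgenic library assumed to vary like the others. Under the other 12 alternatives without a block the gene was called.

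Hottip begins on the other side of the gap from Hoxa13, at chr6:52262775-52267603 on the plus strand. Its values were 21.8, 22.0, 19.3 and 19.1 CPM in wildtype and 10.3 and 8.56 CPM in Cdx2P:Nr6a1, or 50% and 41.6% of the wildtype mean. The ranges were far apart. The mean fell from 20.6 ± 1.54 CPM (SD, n = 4) to 9.42 ± 1.22 CPM (SD, n = 2), and the log2 fold change was -1.14 (SE 0.11, adjusted p = 0.00286, edgeR quasi-likelihood test). This was the 18th largest decrease among all genes tested. Hottip was called under all 13 alternatives without a block, with log2 fold changes from -1.26 to -1.01.

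The size of the fall was compared between these neighbours. For each read of Hoxa13, Hottip had 0.301, 0.297, 0.270 and 0.300 reads in wildtype and 0.203 and 0.213 reads in Cdx2P:Nr6a1. The ratio was lower in both transgenic libraries than in any wildtype library. Its log2 value differed by -0.49, a fold of 0.714, with an exact two-sided permutation p of 0.0667, the smallest possible. Further rows beside or between these neighbours also lay lower. 9530018H14Rik, an unclassified transcript, begins 233 bases beyond the 3′ end of Hoxa13 on the same strand. It had 12.2, 12.6, 14.1 and 11.2 CPM in wildtype and 9.69 and 6.80 CPM in Cdx2P:Nr6a1 (log2 fold change -0.61, SE 0.15, adjusted p = 0.102, edgeR). It was not called there but was called by 3 of 13 alternatives, the edgeR likelihood ratio test (adjusted p = 0.0321), DESeq2 (adjusted p = 0.00324) and the edgeR fit without a filter on low counts, within a range from 0.000182 to 0.410. Its ratio to Hoxa13 differed by 0.03 on the log2 scale between the groups (exact permutation p = 0.933). Gm27985, a short RNA row that overlaps the first bases of Hottip and extends upstream of it, had 38, 40, 34 and 15 counts in wildtype and 13 and 6 counts in Cdx2P:Nr6a1 and was too low to be tested. So was Gm27280, a short RNA row between Hoxa13 and Hottip, with 2, 5, 8 and 6 counts in wildtype and 1 in each transgenic library.

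Evx1, at chr6:52313498-52318378 on the plus strand, lies 45894 bases beyond the end of Hottip. It had 174, 173, 156 and 152 CPM in wildtype and 187 and 161 CPM in Cdx2P:Nr6a1. The groups overlapped, since the transgenic libraries lay above and within the wildtype range. The log2 fold change was 0.08 (SE 0.08, adjusted p = 0.860, edgeR quasi-likelihood test), and its sign turned to -0.03 without Cdx2P:Nr6a1 replicate 1. Evx1os, which starts on the opposite strand inside Evx1 and shares 73 exon bases with it, lay at 182 to 223 CPM in wildtype and at 213 and 204 CPM in Cdx2P:Nr6a1. For each read of Evx1os there were 0.779 to 0.839 reads of Evx1 in wildtype and 0.877 and 0.788 in Cdx2P:Nr6a1, a log2 difference of 0.04 (exact permutation p = 0.533).

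Levels of different genes were compared per kb of exon that no other row shares. In all 4 wildtype libraries the order was Hoxa11os, Evx1, Hoxa13, Hoxa11 and Hottip. The wildtype means were 109 ± 9.23, 58.4 ± 4.08, 28.5 ± 1.84, 22.4 ± 1.24 and 9.55 ± 0.714 CPM per kb (SD, n = 4) in that order, and no neighbours overlapped. In both transgenic libraries Hoxa11 and Hoxa13 had changed places. Hoxa11 was at 48.9 ± 5.13 and Hoxa13 at 18.4 ± 2.96 CPM per kb (SD, n = 2), while Hoxa11os at 89.7 ± 3.68 and Evx1 at 62.0 ± 6.60 came first and second and Hottip at 4.38 ± 0.565 came last. The first places depended on the length used. Per kb of all exon bases Hoxa11os and Evx1 had the same wildtype mean, 56.9 CPM per kb, and in Cdx2P:Nr6a1 Evx1 came first, at 60.4 against 47.0 CPM per kb for Hoxa11os.

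The exchange is seen most directly in the reads of Hoxa13 for each read of Hoxa11. There were 2.34, 2.21, 2.02 and 1.91 in wildtype and 0.751 and 0.515 in Cdx2P:Nr6a1. All wildtype libraries thus held more Hoxa13 than Hoxa11, and both transgenic libraries held less. The mean log2 ratio went from 1.08 to -0.69, a difference of -1.77 (exact two-sided permutation p = 0.0667, the smallest possible), and leaving out a transgenic library gave -1.49 (replicate 2 removed) or -2.04 (replicate 1 removed). For Hoxa11, Hoxa11os, Hoxa13 and Hottip the transgenic replicate with the higher Nr6a1 was also the one farther from wildtype, at 235% against 202%, 80.1% against 84.9%, 57.0% against 71.7% and 41.6% against 50% of the wildtype mean, in that order. For Evx1 it was not, at 98.1% against 114%. With 2 embryos this is a description of these libraries.

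**Figure D2:**
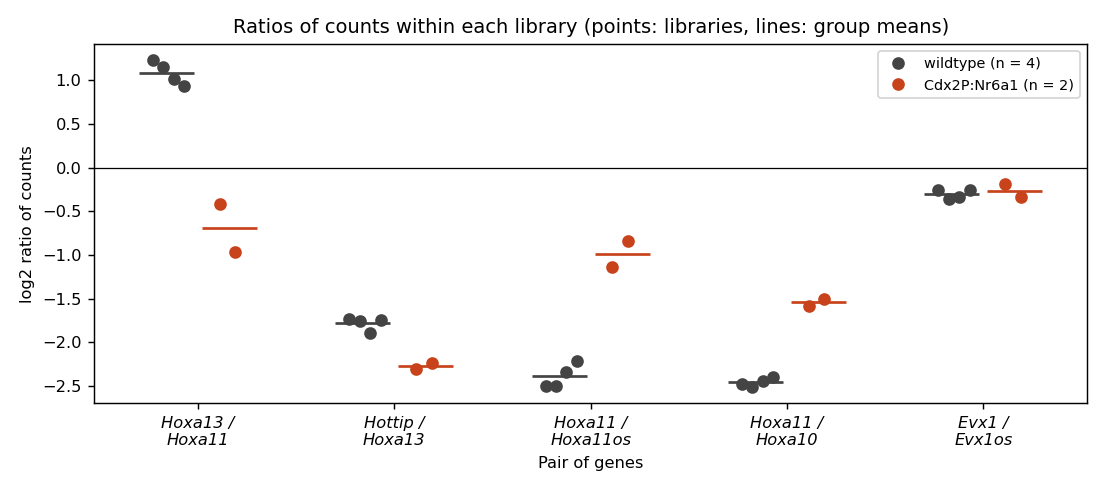
The log2 ratio of counts within each library (vertical axis) for 5 pairs of genes, in 4 wildtype (grey) and 2 Cdx2P:Nr6a1 (orange) libraries, with lines at the group means. The Hoxa13 to Hoxa11 ratio crosses 0, from a mean of 1.08 to -0.69, whereas the Evx1 to Evx1os ratio overlaps between the groups.

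The stretch of 156 kb from Hoxa2 to Evx1 holds 33 rows, of which 21 were tested. Besides the 3 genes above, the only row called was Hoxa9, a trunk Hox gene, at 171, 187, 182 and 179 CPM in wildtype and 238 and 220 CPM in Cdx2P:Nr6a1 (log2 fold change 0.35, SE 0.05, adjusted p = 0.0116, edgeR). Its adjusted p was 0.114 without Cdx2P:Nr6a1 replicate 1. Of the 12 rows tested from Hoxa2 to Hoxa10, 11 had a log2 fold change above 0 and 1 below 0, and the values lay between -0.05 and 0.35 with a median of 0.20, beside -0.001 over all genes tested. The 8 Hox genes from Hoxa2 to Hoxa10 were summed at 578 to 632 CPM in wildtype and at 721 and 708 CPM in Cdx2P:Nr6a1. Of the noncoding rows of this side, 5 of a list of 7 were in the table and none was called by edgeR's quasi-likelihood test, Hoxaas3 with a log2 fold change of 0.27 (SE 0.07, adjusted p = 0.128, edgeR) and Hoxaas2 with -0.05 (SE 0.12, adjusted p = 0.962). Of these 5, 1 had an unadjusted p under 0.05, as did 5 of the 8 Hox genes. The share of all genes tested that reached this was not computed, so such counts here and below have no background to be read against. Hoxaas3 was called under 4 of 13 alternatives, the edgeR likelihood ratio test (adjusted p = 0.0336), DESeq2 (adjusted p = 0.0187) and the edgeR fits without a filter (adjusted p = 0.000521) and without wildtype replicate 3 (adjusted p = 0.0335), within a range up to 0.467. The change of Hoxa11 exceeded that of every row tested from Hoxa2 to Hoxa10, and both rows called lower lay beyond it.

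**Figure D3:**
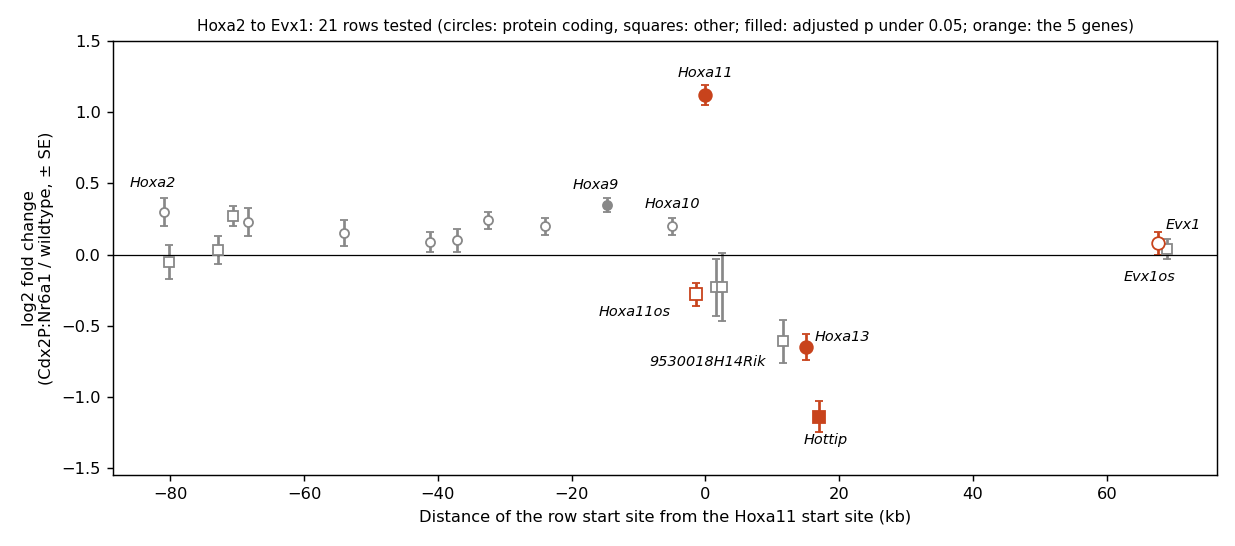
The log2 fold change of Cdx2P:Nr6a1 against wildtype (vertical axis, bars are SE) for the 21 rows tested from Hoxa2 to Evx1, against the distance of each row's start site from that of Hoxa11 in kb. Circles are protein-coding rows, squares are others, filled symbols have an adjusted p under 0.05 and orange marks the 5 genes. The 12 rows from Hoxa2 to Hoxa10 lie between -0.05 and 0.35, Hoxa11 stands at 1.12, and the 6 rows tested from Hoxa11os to Hottip are below 0.

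The other clusters offer paralogues, the genes at the same place in the HoxB, HoxC and HoxD clusters. Of a list of 9 posterior genes there, 8 were tested, 4 were called lower and 0 higher, and the median log2 fold change was -0.43. The 4 were Hoxb13 (-1.54, SE 0.12), Hoxc13 (-0.91, SE 0.07), Hoxd13 (-0.77, SE 0.06) and Hoxd12 (-0.58, SE 0.10). Hoxa13 and Hoxd12 were lost without Cdx2P:Nr6a1 replicate 2 and Hoxd12 also without wildtype replicates 1, 2 or 4 (adjusted p from 0.0526 to 0.0737 for Hoxd12, edgeR), while the other 3 Hox13 genes were called with any 1 library left out. All 4 Hox13 genes were thus called lower, and Hoxa13 had the smallest of their log2 fold changes, though the differences between them were not tested.

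Of the paralogues of Hoxa11, Hoxc11 lay at 104, 108, 105 and 103 CPM in wildtype and at 113 and 100 CPM in Cdx2P:Nr6a1, and Hoxd11 at 219, 238, 241 and 255 CPM against 243 and 239 CPM. Neither separated the groups, and their log2 fold changes were 0.02 (SE 0.05) and 0.01 (SE 0.06). The log2 ratio of Hoxa11 to Hoxc11 was 1.10 higher in Cdx2P:Nr6a1 and that of Hoxa11 to Hoxd11 1.11 higher, each with the smallest exact permutation p = 0.0667, and both were higher in 2 of 2 transgenic libraries than in any wildtype library. In the same way Hottip was set beside Hotair, the noncoding transcript of the HoxC cluster, which had a log2 fold change of -0.27 (SE 0.14). The log2 ratio of Hottip to Hotair was 0.87 lower, again with p = 0.0667 in the exact test. These pairs were chosen after their values had been seen.

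**Figure D4:**
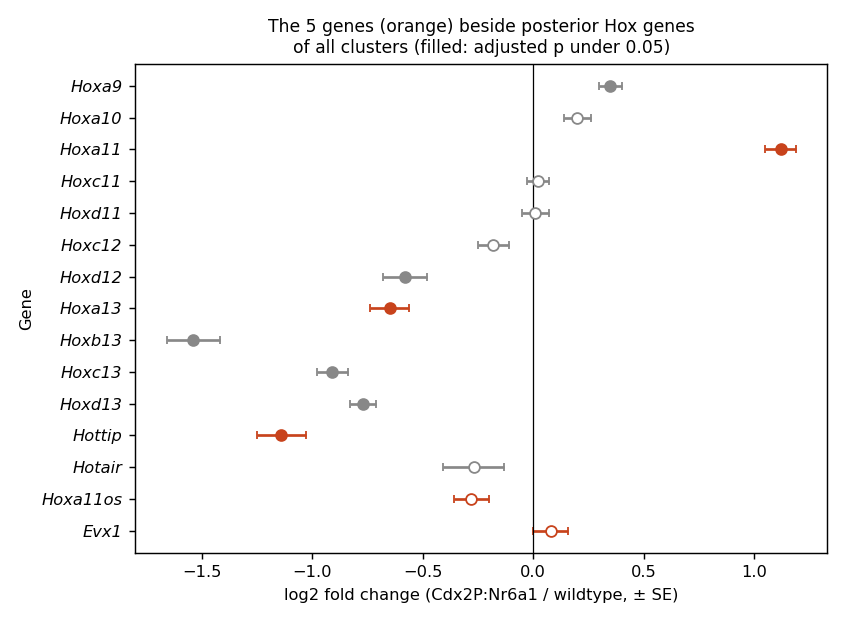
The log2 fold change of Cdx2P:Nr6a1 against wildtype (horizontal axis, bars are SE) for the 5 genes (orange) and for Hox genes and Hotair beside them (grey), filled where the adjusted p is under 0.05. Hoxa11 at 1.12 is far from Hoxc11 at 0.02 and Hoxd11 at 0.01, and all 4 Hox13 genes are below 0.

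Partners and known inputs of these genes were read as lists. Of the 8 genes of the WDR5-MLL complex, which Hottip is known to bind, 0 of 8 were called in edgeR and 0 had an unadjusted p under 0.05, with log2 fold changes from -0.07 to 0.07. Those with the highest levels were Hcfc1, a scaffold of the complex, at -0.07 (SE 0.07) and Psip1, a chromatin tether, at 0.04 (SE 0.07). Of 9 TALE homeodomain cofactors of Hox proteins, 1 was called, Pknox2, with a log2 fold change of 0.61, and 2 had an unadjusted p under 0.05. Of 15 signals and transcription factors known to act on 5′ Hox genes or Evx1 in the tailbud, 1 rose and 1 fell, and 5 had an unadjusted p under 0.05. The likelihood ratio test and DESeq2 each called 4 of the 15. The quasi-likelihood test called Cdx2 (log2 fold change 0.35, SE 0.07, adjusted p = 0.0340, edgeR) and Cdx1 (-0.60, SE 0.11, adjusted p = 0.0313), caudal-type homeodomain factors that act on Hox genes. The transgene carries a Cdx2 promoter, and whether its reads add to Cdx2 was not tested. The ligand Gdf11, which is known to bring on the posterior Hox genes, was not called, at 362 to 431 CPM in wildtype and 367 and 375 CPM in Cdx2P:Nr6a1.

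Other cell types that use these genes could add to a tailbud library. For limb bud mesenchyme, a known site of Hoxa11, Hoxa13 and Hottip, 8 markers were summed. The sum was 14.9 to 19.4 CPM in wildtype and 14.4 CPM in both transgenic libraries. Lmx1b alone had a mean of 8.8 CPM in wildtype and 7.52 CPM in Cdx2P:Nr6a1. Only 3 of the 8 passed the filter, and the highest, Lmx1b and Twist2, had log2 fold changes of -0.24 (SE 0.26) and -0.66 (SE 0.16) and were not called, and 1 of the 3 had an unadjusted p under 0.05. The defining marker Tbx4 was at 0.122 to 0.267 CPM in wildtype and at 0.272 and 1.68 CPM in Cdx2P:Nr6a1. Prrx1 was at 0.142 to 0.233 CPM in wildtype and at 0.408 and 1.13 CPM in Cdx2P:Nr6a1. Both were above wildtype in both transgenic libraries, while Fgf10, at 0.894 to 1.45 against 0.703 and 0.863 CPM, was below it. Tbx5 and Prrx2 overlapped, and all of these were too low to be tested. The part of limb bud cells in the results was not tested. Hindgut and cloacal endoderm, a known site of Hoxa13, was summed at 314 to 398 CPM over 10 markers in wildtype and at 465 and 415 CPM in Cdx2P:Nr6a1, with 1 of 9 tested called, the keratin Krt18 (log2 fold change 0.37). An unadjusted p under 0.05 was reached by 4 of the 9, and the likelihood ratio test and DESeq2 each called 2. The highest levels in this list were those of Cdh1, Epcam, Krt8 and Krt18, which other epithelia also express. The transcription factors Foxa1 and Sox17 and the ligand Shh, at 2.95 to 7.37 CPM in the transgenic libraries, overlapped the wildtype range, with log2 fold changes of -0.05 (SE 0.20), 0.02 (SE 0.22) and -0.07 (SE 0.23). The part of these cells in the Hoxa13 result was not tested.

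The 10 markers of V0 interneurons, a known site of Evx1, and of young neurons were summed at 25.2 to 28.1 CPM in wildtype and at 34.0 and 42.6 CPM in Cdx2P:Nr6a1. Lhx5 was called (log2 fold change 0.95), while the defining factor Dbx1 was at 0 in 5 of the 6 libraries. The neuronal RNA-binding protein gene Elavl3 went the other way, at 2.87 to 4.65 CPM in wildtype and 2.38 and 1.74 CPM in Cdx2P:Nr6a1 (log2 fold change -0.90, SE 0.22, adjusted p = 0.100, edgeR). All 4 genes tested had an unadjusted p under 0.05, and the likelihood ratio test and DESeq2 each called 4 of the list. The sum was higher in both transgenic libraries, and the part of these cells in the Evx1 and Hoxa11 results was not tested. Markers of surface ectoderm, led by Wnt6 and Trp63, were at 93.0 to 137 CPM against 139 and 119 CPM, and those of notochord, led by Noto and Chrd, at 61.2 to 83.0 CPM against 85.9 and 72.0 CPM. Primitive erythroid genes, led by the globins Hbb-y and Hbb-bh1, ranged from 8303 to 20130 CPM in wildtype, with 10052 and 13859 CPM in Cdx2P:Nr6a1. No gene of these 3 lists was called by edgeR's quasi-likelihood test with the filter on low counts, all 6 libraries and no block. In that fit 0 had an unadjusted p under 0.05. Of the tailbud markers, Cdx2 and Cyp26a1, which breaks down retinoic acid, rose (log2 fold change 0.35 and 0.73). The mesodermal markers Tbx6 (-0.26, SE 0.06, adjusted p = 0.107, edgeR) and Msgn1 (-0.43, SE 0.17, adjusted p = 0.392) were not called, and Tbx6 lay below all wildtype libraries in both transgenic ones. An unadjusted p under 0.05 was reached by 6 of the 10 tailbud markers, and the likelihood ratio test called 4 and DESeq2 5. Pknox2, Cdx1, Cdx2, Cyp26a1, Krt18 and Lhx5 each lost their call in 3 to 5 of the 6 fits with 1 library left out, with adjusted p from 0.0519 to 0.285, and each of the 6 libraries ended at least 1 of these calls when removed.

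The genes whose course over the 6 libraries was most like that of Hoxa11, Hoxa13 and Hottip were found by the root mean square difference of the log2 CPM relative to the wildtype mean, over 12728 genes without a 0. For Hoxa11 these were Gap43 (0.117), a growth cone protein, the Eph receptor Epha5 (0.125) and Ly6a (0.135). Gap43 went from a mean of 7.28 to 14.9 CPM. For Hoxa13 they were the transcription factor Bcl11a (0.056), Hoxd12 (0.068) and Cpt1a (0.070), a mitochondrial carnitine palmitoyltransferase, with smaller differences than for Hoxa11. Hoxd12, the highest of them, went from 230 to 154 CPM. For Hottip they were Shisa6 (0.115), the retinoic acid hydroxylase Cyp26b1 (0.137) and the dynein Dnah9 (0.140). Likeness was computed on the values that also set the fold changes, so that the 9 genes are named as a description.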

How the data were processed

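RNA of 6 E10.5 tailbuds was sequenced from stranded poly(A) libraries, 1 per embryo. The authors aligned reads with STAR to mm10, per the labels, and deposited raw counts for 54134 rows. The counting program, annotation release and strand setting are not given in the sources used here. The exons of chromosome 6 matched GENCODE M21 for 99.9% of those named in both. There were 0 columns of other samples. A table of the authors' own comparison (fold changes, p-values, CPM) was not used.

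Genes over 10 counts and 2 CPM in at least 2 libraries were tested with edgeR 4.0.16 (quasi-likelihood, TMM, no covariates, R 4.3.3) and called at a Benjamini-Hochberg adjusted p under 0.05. The SE is the log2 fold change over the square root of F. Printed CPM used column totals. Count ratios were tested by exact permutation over 15 arrangements. Scripts were tested on simulated data. The alternatives included DESeq2 1.42.0 and limma 3.58.1.

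The genes and lists were chosen with earlier results of these data known. Named were the 5 genes, the rows from Hoxa2 to Evx1, Nr6a1, the called genes of each list or its 2 highest, and the 3 genes most like Hoxa11, Hoxa13 and Hottip. Some items that the rule would name are not reported here. Other paralogues and markers were named after their values were seen.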

Additional observations from a re-analysis of the deposited data

Results flagged for a closer look

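Over the 31 sets of 4 wildtype values examined (the tested rows of the locus, Nr6a1 and the ratios), 1 had a library far from the others, which chance gives in about 1 in 20 sets. The log2 ratio of Hottip to Hoxa13 was -1.73, -1.75, -1.89 and -1.74 in wildtype replicates 1 to 4, so that replicate 3 lay apart, with a gap of 0.873 of the whole range (Dixon's test for 4 values). The wildtype to transgenic difference of this ratio was -0.49 with that library and -0.52 without it.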

How the results depend on the processing

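Hoxa11 and Hottip kept their direction and their call under every alternative run, and Hoxa13 kept its direction under all and lost its call only without Cdx2P:Nr6a1 replicate 2 (log2 fold change -0.49, range with 1 library left out -0.81 to -0.49). Hoxa11os, not called in the report, was called by the likelihood ratio test of edgeR (-0.28), by DESeq2 (-0.29), without a filter on low counts (-0.29) and without wildtype replicate 4 (-0.35 to -0.24 over the left-out libraries). Evx1 lay between -0.03 and 0.18 with 1 library left out. The ratio of Hoxa11 to Hoxa11os moved between 1.25 and 1.55 and that of Hoxa13 to Hoxa11 between -2.04 and -1.49. The count of all genes called was 203, and 401 by the likelihood ratio test, 477 by DESeq2, 876 without a filter and 61 to 175 with 1 library left out. Among the Hox genes from Hoxa2 to Hoxa10 1 was called, 2 by DESeq2, 4 without a filter and 0 to 2 with 1 library left out. The cause of these differences was not tested.

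Wildtype and transgenic embryos share replicate numbers 1 and 2, but no source says that the numbers pair them, and the deviations of the same-numbered libraries correlated at 0.20 and -0.15 over genes. With the replicate number as a block (replicate block) 442 genes were called, Hoxa11os (-0.35), Hoxaas3 (0.32) and 9530018H14Rik (-0.62) were called, the count of hindgut markers called was 5 against 1, and the sign turned for Evx1 (-0.01), Evx1os (-0.05) and Hoxaas2 (0.04), none of them called. With 1 library left out, rows near 0 also changed sign: Hoxaas2 (-0.17 to 0.07), Gm15050 (-0.05 to 0.11), Gm27817 (-0.64 to 0.11), Gm27454 (-0.54 to 0.05) and Evx1os (-0.02 to 0.08). The 9 genes named for likeness were the same with TMM library sizes. With 2 transgenic embryos, the spread of that group is poorly known.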
